A study of Homo sapiens with 36 samples.

Results

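This report describes 9 genes of the AMP-activated protein kinase (AMPK) pathway: the 2 kinases CAMKK2 and CAMKK1, the kinase gene STK11, and the AMPK subunit genes PRKAA1, PRKAA2, PRKAB1, PRKAB2, PRKAG1 and PRKAG2. They were taken by gene symbol from the 61805 named entries of the deposited count table. The data are 36 polyA RNA-seq libraries in 12 groups of 3, from 2 prostate cancer cell lines. LNCaP came from a prostate cancer metastasis and responds to androgen. The 42D cells descend from LNCaP and resist enzalutamide, an antiandrogen drug. LNCaP supplied 24 libraries of 4 lines, named NT3, sgT33-5, C2 and F2 here (the last 2 carry the full names sgT33-5_MC_C2 and sgT33-5_MC_F2). 42D supplied 12 libraries of 2 lines, NT3 and sgT33-5.

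Every line was kept for 3 days in hormone-stripped serum and then given either DMSO, the solvent, or 5 nM R1881, a synthetic androgen, for 6 hours. The labels do not expand the line names. The series title names TRIM33 loss, and on that basis sgT33-5 is taken here as a guide against TRIM33 and NT3 as a non-targeting control. Nor do they say whether C2 and F2 each grew from 1 cell, or whether the 3 replicates of a group were separate cultures, so p-values measure the spread between these libraries, which may be technical. All groups share one genotype label, tumor.

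AMPK is a heterotrimer of a catalytic alpha subunit, a scaffolding beta subunit and a nucleotide-binding gamma subunit, and it restrains lipid synthesis and growth signalling when cellular energy is low. It is switched on by phosphorylation of the alpha subunit, either by LKB1, the product of STK11, or by the calcium-dependent kinases CAMKK2 and CAMKK1. CAMKK2 is a well-known androgen-induced gene in prostate cancer cells. All values here are transcript levels, which do not report protein or kinase activity. In RNA from whole cultures, a change in the number of cells that express a gene and a change in its RNA per cell cannot be told apart.

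The library totals ran from 13900744 to 19793268 counts. Levels are in CPM, which are counts scaled to a common library total after adjustment of the totals by the TMM method, and are given per library or as mean ± SD over 3 libraries. Differences are log2 fold changes with standard errors (SE) from edgeR's quasi-likelihood test, with Benjamini-Hochberg adjustment over all genes tested. A difference was called where the adjusted p was under 0.05. With DMSO, TRIM33 averaged 93.36 CPM in LNCaP NT3, and the 3 guide lines averaged 47.79 (sgT33-5), 35.1 (C2) and 42.33 CPM (F2). In 42D given DMSO it averaged 84.52 CPM in NT3 and 57.33 in sgT33-5. The summed level of 9 luminal prostate markers was 2370 to 7190 CPM over the groups, while 3 of 3 basal and 4 of 4 leukocyte markers stayed under 1 CPM in every group mean. Of the fibroblast and endothelial markers, 2 of 3 each stayed under 1 CPM, with summed levels of 22.4 to 32.9 (COL1A1) and 0.525 to 20.8 CPM (VWF). Neuroendocrine markers summed to 43.8 to 146 CPM, of which ENO2 was the largest part (42.05 to 104.2). The highest group means of the others were 37.74 (NCAM1), 5.281 (SYP) and 0.0633 CPM (CHGA), so 1 of 4 stayed under 1 CPM. A pair of LNCaP libraries stood apart by a low share of mitochondrial counts: sgT33-5 with DMSO, replicate 3 (2.14%), and sgT33-5 with R1881, replicate 1 (2.4%). The other LNCaP libraries held 4.16% to 6.66%.

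The promoters of CAMKK2, CAMKK1, PRKAA2 and PRKAB2 are shown first, because these 4 members had the largest called changes with R1881. PRKAA1, PRKAB1 and PRKAG2, with smaller called changes in some lines, are not shown. Sequences and transcription starts are from RefSeq on GRCh38.p14, in which all 9 genes were matched. Each stretch lies in the 250 bases before the start, without bases that GENCODE v29 places in an exon of the gene. The CAMKK2 and CAMKK1 stretches lie inside the gene spans given below. On the minus strand those spans begin further upstream, at 121298308 and 3894891. Capitals mark GC boxes, the letters GGGCGG or their reverse complement CCGCCC, where matches may overlap.

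CAMKK2 (chr12:121296754-121296959, minus strand): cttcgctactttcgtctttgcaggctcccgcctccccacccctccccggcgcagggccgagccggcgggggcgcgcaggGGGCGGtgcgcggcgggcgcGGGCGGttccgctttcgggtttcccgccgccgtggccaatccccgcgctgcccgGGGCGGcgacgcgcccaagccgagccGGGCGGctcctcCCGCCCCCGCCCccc
CAMKK1 (chr17:3893054-3893303, minus strand): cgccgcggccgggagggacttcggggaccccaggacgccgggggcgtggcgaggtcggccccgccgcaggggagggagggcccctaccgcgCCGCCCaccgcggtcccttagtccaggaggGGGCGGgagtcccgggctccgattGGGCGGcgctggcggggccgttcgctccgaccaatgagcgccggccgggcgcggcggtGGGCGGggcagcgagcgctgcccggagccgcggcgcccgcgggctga
PRKAA2 (chr1:56645064-56645313, plus strand): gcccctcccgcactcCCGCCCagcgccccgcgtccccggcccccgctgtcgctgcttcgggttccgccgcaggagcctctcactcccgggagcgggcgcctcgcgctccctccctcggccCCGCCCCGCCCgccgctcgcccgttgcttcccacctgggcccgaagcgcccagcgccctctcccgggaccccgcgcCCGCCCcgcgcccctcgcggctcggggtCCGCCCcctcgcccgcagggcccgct
PRKAB2 (chr1:147172551-147172720, minus strand): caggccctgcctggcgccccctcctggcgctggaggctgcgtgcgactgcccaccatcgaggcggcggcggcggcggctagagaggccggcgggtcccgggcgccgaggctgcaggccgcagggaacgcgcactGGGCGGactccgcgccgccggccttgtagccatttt

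These stretches hold 6 GC boxes in CAMKK2, 4 in CAMKK1, 5 in PRKAA2 and 1 in PRKAB2. RefSeq lists 2 starts for CAMKK1; the first is shown, and the window before the other held 0 GC boxes. A GC box occurred in 42.6% of 35116 RefSeq promoter windows of 250 bases. The palindromic androgen response element, AGAACA and TGTTCT spaced by 3 bases of any kind, had no match in the 4 windows, on either strand, and matched 1 of the 35116. Its half-site AGAACA alone, searched on both strands, which 12.4% of the windows hold, matched the PRKAB2 window at bases 9 to 4 before the start, inside an exon and so not printed above. It had no match in the windows of CAMKK2, CAMKK1 and PRKAA2. These letters describe short windows only and say nothing of protein binding there or elsewhere.

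CAMKK2, the kinase that activates AMPK in response to calcium and calmodulin, lies on chromosome 12 (121237675 to 121298308, minus strand, ENSG00000110931). R1881 raised it in all 6 lines. In LNCaP NT3 the 3 libraries given DMSO held 158.1, 160.3 and 143.0 CPM, and those given R1881 held 515.5, 552.6 and 443.1 CPM. In 42D NT3 they held 78.3, 82.56 and 84.21 CPM with DMSO, and 273.1, 279.2 and 281.2 CPM with R1881. In both lines every library given R1881 lay far above every library given DMSO.

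The fold increase was 3.26 in LNCaP NT3 (log2 1.70, SE 0.068, adjusted p = 6.43e-16) and 3.45 in 42D NT3 (log2 1.79, SE 0.050, adjusted p = 2.27e-17). The 42D response exceeded that of LNCaP by 0.05 (SE 0.090, adjusted p = 0.881), so a difference in the size of the response was not shown. The increase was 2.92-fold in LNCaP sgT33-5, 2.78-fold in F2, 2.16-fold in C2 and 3.77-fold in 42D sgT33-5. The call in each of the 6 lines held whichever library was left out.

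**Figure D1:**
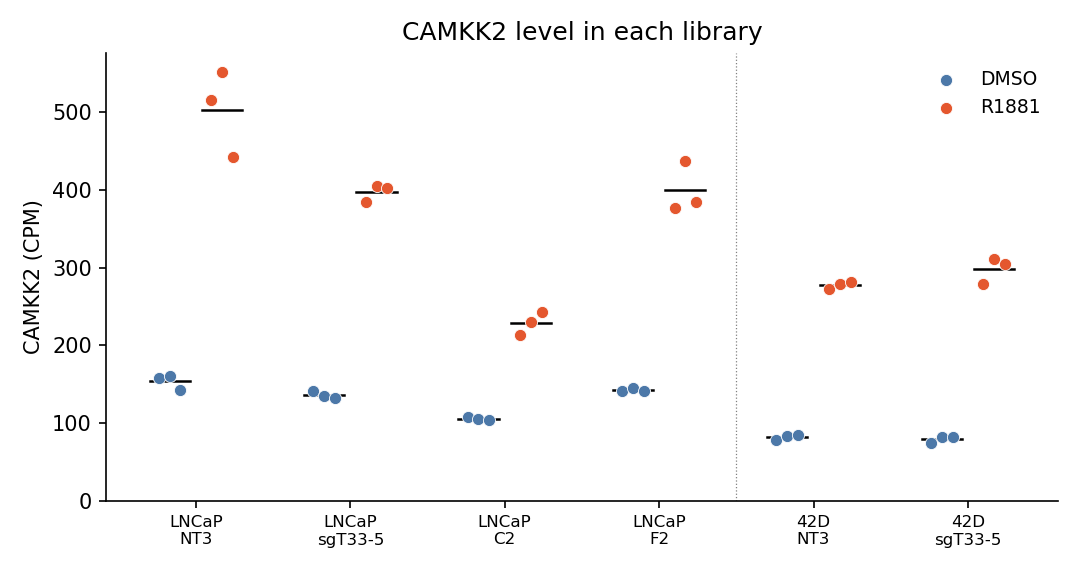
CAMKK2 level (CPM, vertical axis) in each of the 36 libraries, by line and treatment, where points are libraries and bars are means of 3. In each line the 3 libraries given R1881 lie above the 3 given DMSO, and the R1881 bar of LNCaP C2 (229.0 CPM) is the lowest of the 6.

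Over the 12 groups the CAMKK2 level ran from 79.28 ± 4.44 CPM (42D sgT33-5 with DMSO) to 503.7 ± 55.7 CPM (LNCaP NT3 with R1881). With R1881, LNCaP NT3 was followed by F2 (399.5 ± 32.9) and sgT33-5 (397.6 ± 11.2), whose libraries overlapped. Then came 42D sgT33-5 (298.0 ± 17.3) and 42D NT3 (277.8 ± 4.25), which also overlapped, and last LNCaP C2 (229.0 ± 15.2). With DMSO the order was LNCaP NT3 (153.8 ± 9.41), F2 (142.6 ± 2.47), sgT33-5 (135.6 ± 4.74) and C2 (105.4 ± 2.16). Neighbouring LNCaP lines overlapped there except C2, which lay below the other 3. Both 42D lines followed, 42D NT3 at 81.69 ± 3.05 CPM, and overlapped each other.

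Among the LNCaP lines labelled with the TRIM33 guide, CAMKK2 with R1881 was lower than in NT3 in each. The 3 libraries held 384.8, 405.5 and 402.4 CPM in sgT33-5, 376.4, 437.1 and 385.0 CPM in F2, and 213.2, 230.4 and 243.4 CPM in C2. All 9 lay below the lowest NT3 library, 443.1 CPM, the F2 library of 437.1 CPM by a narrow margin. The log2 difference from NT3 was -1.13 in C2 (SE 0.067, adjusted p = 1.54e-12). In sgT33-5 it was -0.34 (SE 0.066, adjusted p = 0.00346), and in a fit of only the libraries compared it was -0.326 (adjusted p = 0.0661). In F2 it was -0.34 (SE 0.066, adjusted p = 0.000865).

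With DMSO, C2 held 107.4, 105.6 and 103.1 CPM, below all NT3 libraries (log2 -0.54, SE 0.069, adjusted p = 2.02e-06). In sgT33-5 the libraries held 140.9, 134.1 and 131.8 CPM, also below NT3 without overlap, but the difference of -0.18 was not called (SE 0.068, adjusted p = 0.252). The difference in F2 was -0.11 (adjusted p = 0.32). The response to R1881 was smaller in C2 than in NT3 by -0.59 (SE 0.095, adjusted p = 0.00109). For sgT33-5 the difference in response was -0.16 (SE 0.095, adjusted p = 0.684) and for F2 it was -0.23 (SE 0.095, adjusted p = 1.0), neither of them called. C2 was also below F2, by -0.43 with DMSO (SE 0.069, adjusted p = 3.8e-05) and by -0.80 with R1881 (SE 0.067, adjusted p = 1.36e-09).

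The response of FKBP5, an androgen-induced chaperone gene, was also smaller in C2 than in NT3, by -1.26 (adjusted p = 4.7e-06). KLK3, the androgen-induced gene of prostate-specific antigen, responded 3.14-fold in C2 and 1.99-fold in NT3. That log2 difference of 0.66 was not called (SE 0.286, adjusted p = 0.713). The KLK3 level was lower in C2 than in NT3: 61.38 against 1369 CPM with DMSO, and 193.5 against 2735 CPM with R1881. The log2 differences were -4.476 (SE 0.231, adjusted p = 2.48e-10) and -3.815 (SE 0.221, adjusted p = 8.28e-10).

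In 42D, the guide made no called difference to CAMKK2. The sgT33-5 libraries held 74.16, 82.05 and 81.64 CPM with DMSO, and 278.4, 311.1 and 304.5 CPM with R1881, overlapping NT3 under both treatments. The log2 difference was -0.04 with DMSO (SE 0.052, adjusted p = 0.909) and 0.09 with R1881 (SE 0.046, adjusted p = 0.636). The guide difference with R1881 was 0.44 higher in 42D than in LNCaP (SE 0.087, adjusted p = 0.00273), and this call held whichever library was left out. TRIM33 itself differed less between guide and control in 42D (log2 -0.52 with R1881) than in LNCaP sgT33-5 (-1.07), and the part of that in the CAMKK2 difference was not tested.

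CAMKK1, the paralogue of CAMKK2, lies on chromosome 17 (3860315 to 3894891, minus strand, ENSG00000004660). It went the other way from CAMKK2 with R1881. In LNCaP NT3 the libraries held 43.9, 47.11 and 35.41 CPM with DMSO and 28.7, 28.12 and 21.58 CPM with R1881. In 42D NT3 they held 53.68, 57.54 and 47.78 CPM with DMSO and 27.41, 27.41 and 24.64 CPM with R1881. The treatments did not overlap in either line, and replicate 3 was the lowest of its group in 12 of 12 groups. The main fits hold no term for replicate number, so this shared difference counts as spread between libraries in the CAMKK1 tests below.

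CAMKK1 fell by 0.69 on the log2 scale in LNCaP NT3 (SE 0.159, adjusted p = 0.00398) and by 0.98 in 42D NT3 (SE 0.142, adjusted p = 0.000291). It fell by 0.99 in 42D sgT33-5 (SE 0.142, adjusted p = 0.000244). In the LNCaP guide lines the log2 difference was -0.48 in sgT33-5 (adjusted p = 0.0432), -0.58 in F2 (adjusted p = 0.0173) and -0.50 in C2 (adjusted p = 0.0526, not called). The sgT33-5 call ended without a filter on low counts, in a fit of only the libraries compared, and without DMSO replicates 1 or 2 or R1881 replicates 1 or 3 (adjusted p from 0.0719 to 0.194). The F2 call ended without the filter, and without DMSO replicates 1 or 2 or R1881 replicates 2 or 3 (0.0539 to 0.124). The C2 difference was called without C2 DMSO replicate 3 (adjusted p = 0.0477), in a fit of only the libraries compared (0.00392) and by DESeq2 (0.0156). The 42D response differed from the LNCaP response by -0.31, which was not called (adjusted p = 0.623). With DMSO, CAMKK1 in 42D NT3 differed from LNCaP NT3 by 0.33 (SE 0.154, adjusted p = 0.0592). It was called by DESeq2 (adjusted p = 0.0353) and in a fit of only the libraries compared (0.0126). It was also called without LNCaP NT3 DMSO replicate 2 (log2 difference 0.421) or 42D NT3 DMSO replicate 3 (log2 difference 0.405).

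Between LNCaP lines with R1881, CAMKK1 was higher in C2 than in NT3 (43.82, 43.39 and 35.92 CPM, all above NT3), by 0.66 (SE 0.158, adjusted p = 0.00453). By group mean, C2 was the line with the lowest CAMKK2 and the highest CAMKK1 of the 4 under both treatments. Its CAMKK1 libraries overlapped those of sgT33-5 under both treatments, and C2 was not tested against sgT33-5. With DMSO, C2 differed from NT3 by 0.46 (SE 0.149, adjusted p = 0.0373). That call was lost when no low-count filter was used (adjusted p = 0.0988). It was also lost when NT3 DMSO replicate 1 or 3 or C2 DMSO replicate 1 or 2 was left out (0.0762 to 0.166). C2 exceeded F2 by 0.50 with DMSO (adjusted p = 0.0222), a call lost without the low-count filter (0.0679) and without C2 replicate 1 or 2 or F2 replicate 2 or 3. It exceeded F2 by 0.58 with R1881 (adjusted p = 0.0103, or 0.0556 without F2 R1881 replicate 3). In sgT33-5 with R1881 the difference from NT3 was 0.37 (adjusted p = 0.26), and it was 0.370 with adjusted p = 0.000342 with replicate number as a block, in a comparison whose numbers paired the libraries.

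Of the counts that fell on the 2 kinase genes, CAMKK1 held 21.4 ± 1.46% in LNCaP NT3 with DMSO and 4.92 ± 0.322% with R1881. In C2 its share was 35.3 ± 2.04% with DMSO and 15.3 ± 2.16% with R1881. In 42D NT3 it was 39.3 ± 2.7% and 8.7 ± 0.571%. In each of these lines the share of CAMKK1 with R1881 lay below that with DMSO in every library. These shares are of counts; per kilobase of exon the NT3 shares were 28.2% and 6.93% in LNCaP and 48.2% and 12.1% in 42D.

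**Figure D2:**
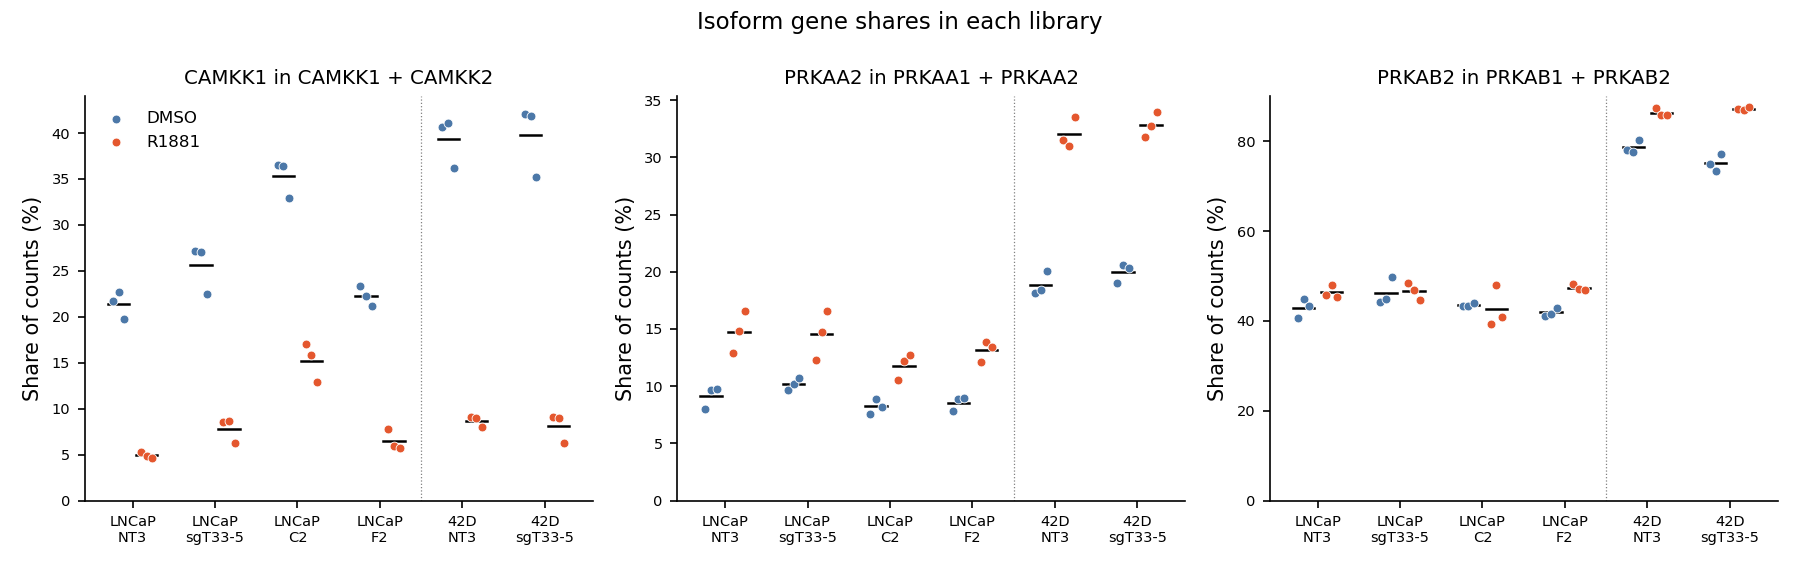
Share of counts (%, vertical axis) held by CAMKK1 of CAMKK1 plus CAMKK2, by PRKAA2 of both alpha genes and by PRKAB2 of both beta genes, in each library by line and treatment. Points are libraries. The CAMKK1 share is lower with R1881 in each line, while the PRKAB2 share is near 43.0% in LNCaP NT3 and 78.7% in 42D NT3 with DMSO.

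STK11, which encodes LKB1, a constitutively active kinase whose phosphorylation of AMPK is promoted by AMP bound to the gamma subunit, lies on chromosome 19 (1177558 to 1228431, plus strand, ENSG00000118046). It showed no called response to R1881 in any of the 6 lines; the log2 differences ran from -0.16 to 0.22, the last in sgT33-5 with adjusted p = 0.0844. The F2 difference of -0.16 was -0.261, and called, without F2 R1881 replicate 1. In LNCaP NT3 its libraries held 42.5, 43.66 and 41.82 CPM with DMSO, inside the range of 38.14 to 44.08 CPM with R1881. In F2 they held 58.37, 53.07 and 59.39 CPM with DMSO, above NT3 without overlap (log2 0.42, SE 0.083, adjusted p = 0.000835). With R1881 the F2 difference was 0.32 (SE 0.084, adjusted p = 0.0108), and the F2 library of 44.02 CPM lay within the NT3 range. That call ended in a fit of only the libraries compared (adjusted p = 0.0757), without NT3 R1881 replicate 1 (0.0646) and without F2 R1881 replicate 1 (0.097). In C2 with DMSO the difference of 0.23 missed the threshold (adjusted p = 0.0528), and was called in a fit of only the libraries compared (0.0131). 42D NT3 exceeded LNCaP NT3 by 0.21 with DMSO (SE 0.077, adjusted p = 0.0153, or 0.0543 without 42D NT3 DMSO replicate 3) and by 0.27 with R1881 (SE 0.077, adjusted p = 0.00252).

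PRKAA1 and PRKAA2 encode the alpha1 and alpha2 catalytic subunits. PRKAA1 lies on chromosome 5 (40759389 to 40798374, minus strand, ENSG00000132356) and PRKAA2 on chromosome 1 (56645314 to 56715335, plus strand, ENSG00000162409). With R1881 the 2 genes moved in opposite directions in 42D. The PRKAA1 libraries of 42D NT3 held 178.2, 168.9 and 181.1 CPM with DMSO and 135.1, 134.0 and 134.1 CPM with R1881. The PRKAA2 libraries held 39.45, 38.15 and 45.6 CPM with DMSO and 62.1, 60.29 and 67.53 CPM with R1881. The treatments did not overlap for either gene, and the replicates of PRKAA1 with R1881 were nearly equal.

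In 42D NT3 PRKAA1 fell by 0.37 (SE 0.041, adjusted p = 2.75e-07) and PRKAA2 rose by 0.64 (SE 0.065, adjusted p = 7.47e-08). In 42D sgT33-5 PRKAA1 again fell by 0.37 (SE 0.041, adjusted p = 2.32e-07) and PRKAA2 rose by 0.59 (SE 0.065, adjusted p = 2.13e-07). Both calls held in both lines whichever library was left out. PRKAA2 therefore made up 18.9 ± 1.07% of alpha counts in 42D NT3 with DMSO and 32.0 ± 1.31% with R1881 (12.7% and 22.8% per kilobase of exon).

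In LNCaP NT3 the PRKAA2 libraries held 24.61, 28.79 and 31.92 CPM with DMSO and 37.31, 43.75 and 52.17 CPM with R1881, again without overlap. PRKAA2 rose by 0.64 (SE 0.141, adjusted p = 0.00264), the same log2 change as in 42D NT3, with a wider spread. Its share of alpha counts was 9.15 ± 0.996% and 14.8 ± 1.86% (5.94% and 9.82% per kilobase of exon). Within groups its replicates were ordered alike: replicate 3 was the highest in 10 of the 12 groups and replicate 1 the lowest in 9. Like CAMKK1, the gene thus carried a difference between replicate numbers, whose source the labels do not give. It counts as spread between libraries in the main fits, which hold no term for replicate number.

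In the guide lines the PRKAA2 response was 0.56 in F2 (SE 0.141, adjusted p = 0.0098), 0.50 in C2 (SE 0.143, adjusted p = 0.0425) and 0.31 in sgT33-5 (SE 0.139, adjusted p = 0.174, not called). In sgT33-5 the libraries with DMSO (28.41, 31.21 and 36.6 CPM) overlapped those with R1881 (32.3, 39.65 and 47.82 CPM). The group holds the 2 libraries of low mitochondrial share; without both the response was 0.543 (adjusted p = 0.0201), and without R1881 replicate 1 alone it was 0.439 (adjusted p = 0.0446). The C2 call ended in 5 of the 6 fits that left out 1 library (adjusted p from 0.0544 to 0.204), the exception being R1881 replicate 1. The F2 call ended without F2 DMSO replicate 1 (0.0586) and without F2 R1881 replicate 3 (0.0652). With R1881, C2 was below NT3 by -0.47 (SE 0.138, adjusted p = 0.0162), which ended without NT3 R1881 replicate 3 (-0.324, adjusted p = 0.121) and without C2 R1881 replicate 1 (-0.390, adjusted p = 0.0871).

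PRKAA1 in LNCaP was less responsive. NT3 held 282.9, 269.0 and 294.4 CPM with DMSO and 251.7, 250.8 and 261.5 CPM with R1881, without overlap, but the difference of -0.16 was not called (SE 0.055, adjusted p = 0.0623; DESeq2 gave 0.0499). In sgT33-5 PRKAA1 fell by 0.28 (SE 0.055, adjusted p = 0.000562), from 265.5, 275.5 and 305.8 CPM to 231.0, 229.2 and 240.4 CPM. In C2 the difference was -0.08 (adjusted p = 0.571). In F2 it was -0.13 (adjusted p = 0.159), or -0.130 with adjusted p = 0.0287 with replicate number as a block, where the numbers paired the libraries. The response of 42D NT3 was lower than that of LNCaP NT3 by -0.24 (SE 0.071, adjusted p = 0.0431). That call ended with RLE scaling (adjusted p = 0.0587), with no low-count filter (0.198) and in a fit of only the libraries compared (0.084). It also ended in 11 of the 12 fits that left out 1 library (0.0629 to 0.21), the exception being LNCaP NT3 DMSO replicate 3. PRKAA1 in C2 was below NT3 with DMSO by -0.16 (SE 0.055, adjusted p = 0.0387), which ended without NT3 DMSO replicate 1 or 3 or C2 DMSO replicate 1 or 2 (0.0837 to 0.158). Against F2 with DMSO, a comparison with paired numbers, C2 differed by -0.112 with the block (adjusted p = 0.0441).

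PRKAB1 and PRKAB2 encode the beta1 and beta2 subunits, which hold the trimer together and bind glycogen. PRKAB1 lies on chromosome 12 (119667864 to 119681624, plus strand, ENSG00000111725) and PRKAB2 on chromosome 1 (147155106 to 147172550, minus strand, ENSG00000131791). Of all members, PRKAB2 differed most between the cell lines. Its libraries held 20.28, 22.26 and 20.46 CPM in LNCaP NT3 with DMSO, and 21.49, 24.27 and 22.71 CPM with R1881. In 42D NT3 they held 56.72, 51.29 and 53.71 CPM with DMSO, and 97.18, 87.28 and 89.53 CPM with R1881. The LNCaP treatments overlapped, whereas in 42D every R1881 library was above every DMSO library.

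In 42D NT3 R1881 raised PRKAB2 by 0.78 (SE 0.053, adjusted p = 1.39e-10) and in 42D sgT33-5 by 0.84 (SE 0.053, adjusted p = 2.79e-11). In the LNCaP lines the difference was 0.11 in NT3 (adjusted p = 0.404), 0.01 in sgT33-5 (0.943), -0.07 in C2 (0.763) and 0.19 in F2 (0.0961). The F2 libraries did not overlap between treatments, and the F2 difference was called with replicate number as a block (0.190, adjusted p = 0.048), where the numbers paired the libraries. The response of 42D NT3 exceeded that of LNCaP NT3 by 0.64 (SE 0.089, adjusted p = 4.5e-06). Leaving out each library in turn gave 0.598 to 0.706, called each time. The level of PRKAB2 in 42D NT3 was 2.57-fold that of LNCaP NT3 with DMSO (log2 1.36, SE 0.064, adjusted p = 2e-20) and 4-fold with R1881 (log2 2.0, SE 0.062, adjusted p = 6.03e-26).

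PRKAB1 was lower in 42D than in LNCaP. NT3 held 29.52, 27.43 and 26.74 CPM in LNCaP and 15.96, 14.73 and 13.16 CPM in 42D, both with DMSO, so that the lines did not overlap. The log2 difference was -0.93 with DMSO (SE 0.084, adjusted p = 3.25e-12) and -0.88 with R1881 (SE 0.085, adjusted p = 1.7e-11). With the 2 beta genes apart in opposite directions, PRKAB2 held 43.0 ± 2.06% of beta counts in LNCaP NT3 and 78.7 ± 1.43% in 42D NT3 with DMSO (30.3% and 68.1% per kilobase of exon). With R1881 its share was 46.4 ± 1.36% in LNCaP NT3 and 86.4 ± 0.94% in 42D NT3.

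PRKAB1 had a called response to R1881 in 1 line, 42D sgT33-5. Its libraries held 18.37, 19.84 and 16.01 CPM with DMSO and 14.94, 13.9 and 13.93 CPM with R1881, a fall of 0.34 (log2 -0.34, SE 0.093, adjusted p = 0.00846). The call ended without DMSO replicate 2, the highest of the group (-0.267, adjusted p = 0.0636). In 42D NT3 the difference was -0.01 (adjusted p = 0.956). The response of 42D sgT33-5 differed from that of 42D NT3 by -0.33 (SE 0.134, adjusted p = 0.571), which was not called. With DMSO, the 42D guide difference of PRKAB1 was 0.31 (SE 0.093, adjusted p = 0.126), and 0.397, called, without sgT33-5 replicate 3. With R1881, PRKAB2 was lower in C2 than in LNCaP NT3 by -0.24 (SE 0.072, adjusted p = 0.0188) and than in F2 by -0.29 (SE 0.071, adjusted p = 0.00372). The first of these ended with no low-count filter (0.148), in a fit of only the libraries compared (0.106), and without NT3 R1881 replicate 2 or 3 or C2 R1881 replicate 1 or 3 (0.0558 to 0.131). The second had an adjusted p of 0.0509 in a fit of only the libraries compared.

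**Figure D3:**
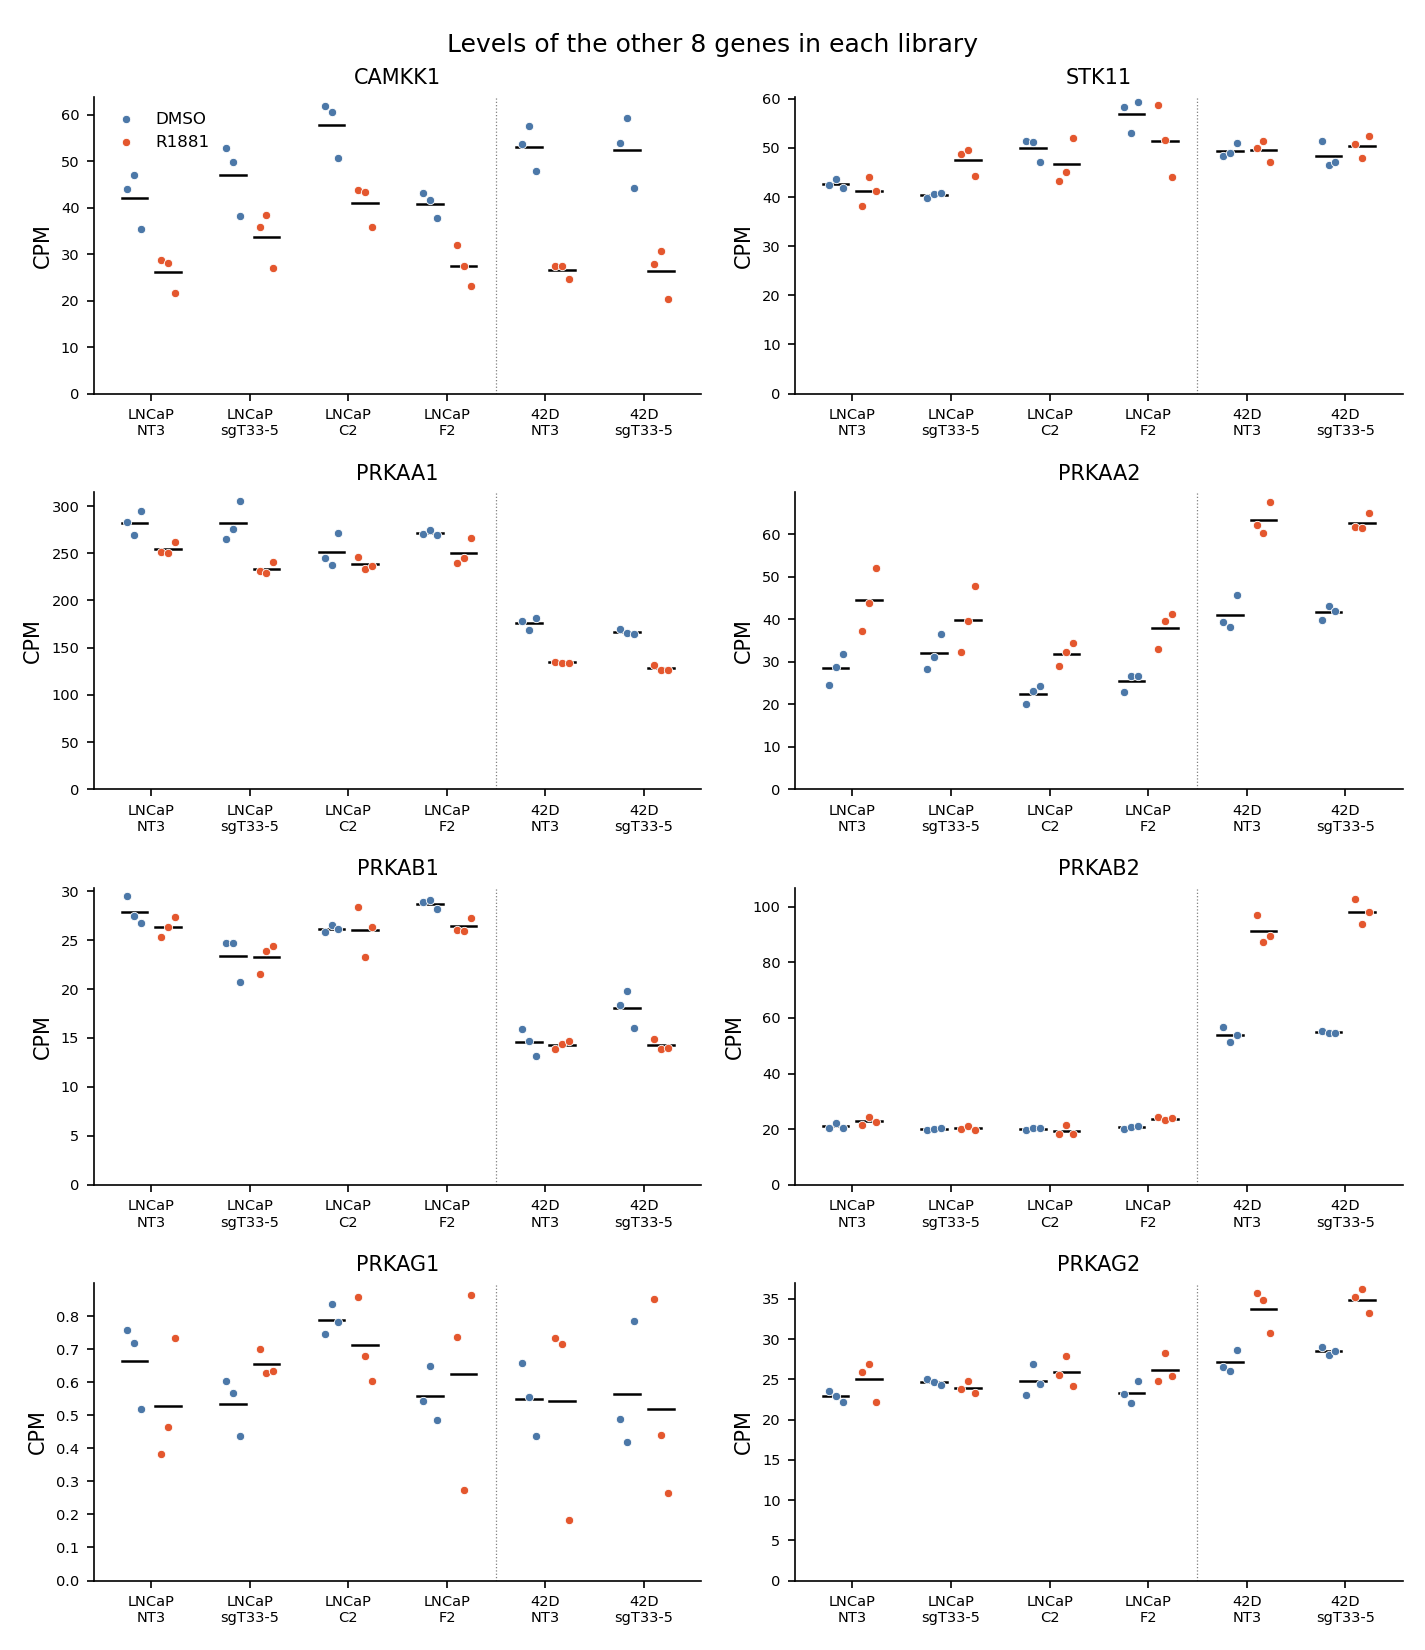
Level (CPM, vertical axes) of the 8 other genes in each of the 36 libraries, by line and treatment, where points are libraries. PRKAB2 lies at 53.91 CPM and more in the 42D group means and near 21.0 CPM in LNCaP NT3 with DMSO, and PRKAA1 and PRKAB1 are lower in 42D than in LNCaP.

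PRKAG1, PRKAG2 and PRKAG3 encode the gamma subunits, which sense AMP, ADP and ATP. PRKAG2 lies on chromosome 7 (151556124 to 151877125, minus strand, ENSG00000106617). In 42D NT3 its libraries held 26.6, 26.06 and 28.69 CPM with DMSO and 35.69, 34.85 and 30.76 CPM with R1881, without overlap. PRKAG2 rose by 0.33 in 42D NT3 (SE 0.069, adjusted p = 0.000728) and by 0.29 in 42D sgT33-5 (SE 0.068, adjusted p = 0.00201). In the LNCaP lines the differences were -0.05 to 0.16, none called, and the difference in response between 42D NT3 and LNCaP NT3, 0.19, was not called either (adjusted p = 0.452). 42D NT3 exceeded LNCaP NT3 by 0.24 with DMSO (SE 0.076, adjusted p = 0.00515) and by 0.43 with R1881 (SE 0.074, adjusted p = 3.63e-06).

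PRKAG1 lies on chromosome 12 (49002274 to 49018807, minus strand, ENSG00000181929). It had 3 to 16 counts per library and group means of 0.519 to 0.789 CPM, with no call in the 24 comparisons. Its whole span lies inside 2 other entries of the table, an entry of nonsense-mediated decay transcripts (ENSG00000288710, 0 to 3 counts) and the antisense gene DDN-AS1 (0 to 8 counts). The level of PRKAG1 is therefore uncertain, since reads that matched more than 1 entry may have been dropped, and the strand setting is not given in the sources used here. The share of PRKAG2 in the 2 gamma genes, 96.9% to 98.5%, carries the same doubt. PRKAG3, the muscle gamma subunit, had 1 count in 1 library and 0 in the other libraries and was not tested.

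Per kilobase of GENCODE v29 exon, which allows genes to be set side by side, PRKAA1 was the most abundant of these transcripts in LNCaP NT3 with DMSO (48.1 CPM per kilobase). CAMKK2 followed at 23.8 and STK11 at 13.7, while PRKAB2 stood at 3.88 and PRKAA2 at 3.04. With R1881 CAMKK2 led at 78.1 CPM per kilobase. In 42D NT3 with DMSO the order was PRKAA1 (30.0), STK11 (15.8), CAMKK2 (12.7), CAMKK1 (11.8) and PRKAB2 (9.95), and with R1881 CAMKK2 led at 43.1, before PRKAA1 at 22.9 and PRKAB2 at 16.9. Over all groups PRKAG2 ranged from 5.25 to 8.01 CPM per kilobase. Exon length includes exons these cells may not use, so these ratios are approximate.

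**Figure D4:**
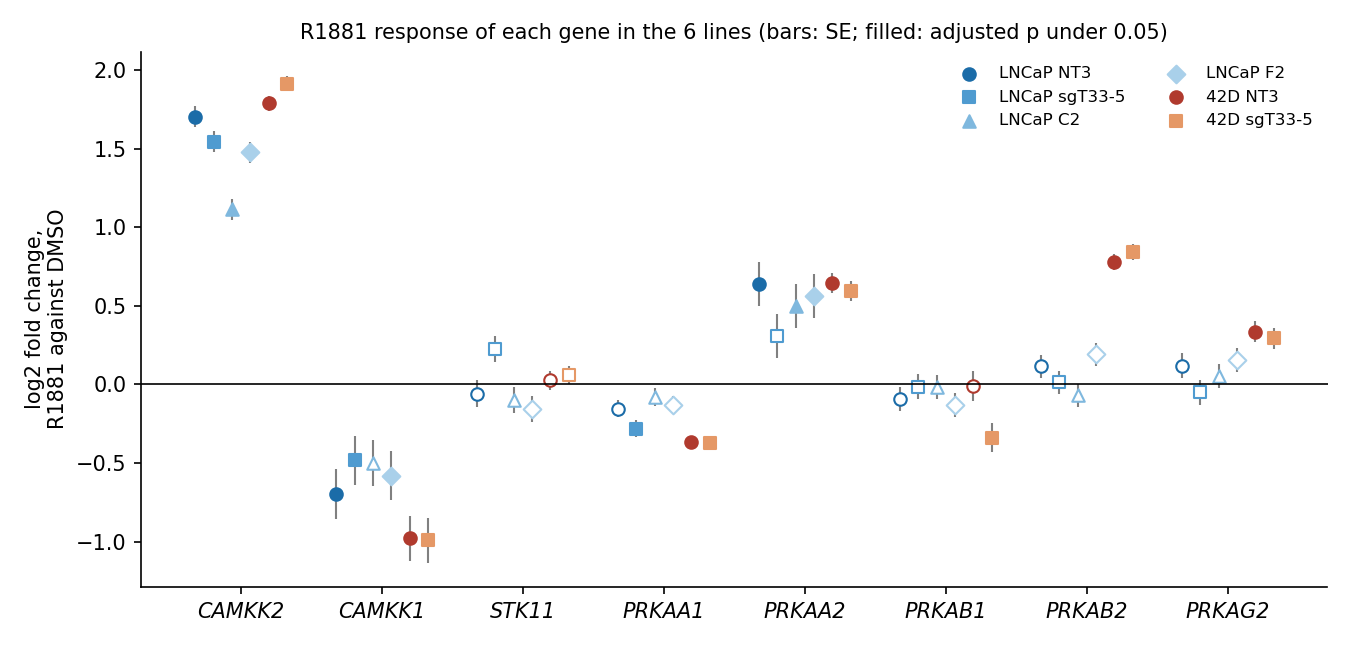
Log2 fold change of R1881 against DMSO (vertical axis) with its standard error, in each of the 6 lines, for 8 of the 9 genes (PRKAG1, with 3 to 16 counts, is not drawn). Filled points have an adjusted p under 0.05. CAMKK2 is filled above 0 in the 6 lines, and PRKAB2 in both 42D lines only.

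As counts of members called with R1881, 3 of 9 differed in LNCaP NT3 (2 higher, 1 lower), against 13.2% of all genes tested. The count was 3 in sgT33-5 (1 higher, 2 lower, 12.5% of all genes), 2 in C2 (both higher, 5.66%) and 3 in F2 (2 higher, 1 lower, 10.4%). It was 6 in 42D NT3 (4 higher, 2 lower, 25.3%) and 7 in 42D sgT33-5 (4 higher, 3 lower, 27.3%). These shares of members lie above those of all genes, but with 9 members chosen with earlier results known, they describe the members only. Leaving out 1 library gave 1 to 2 members in C2 (1 in 4 of the 6 fits, where PRKAA2 lost its call and CAMKK1 gained none) and 1 to 4 in F2, through CAMKK1, PRKAA2 and STK11 as given above.

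Against NT3 with R1881, 1 of 9 was called in sgT33-5 (3.04% of all genes), 4 in C2 (1 higher, 3 lower, 23%) and 2 in F2 (1 higher, 1 lower, 13.4%). With DMSO the counts were 0 in sgT33-5 (1.4%; 2 at an unadjusted p under 0.05), 3 in C2 (1 higher, 2 lower, 18.2%) and 1 in F2 (16.7%). C2 and F2 differed in 2 members with DMSO (18.1%) and 3 with R1881 (21%). In 42D, 0 members were called between the guide and NT3 with DMSO (1.13%) or R1881 (0.513%). Of the responses, 1 member differed between C2 and NT3 (0.689%), and 0 for sgT33-5 (0%), F2 (0%) and the 42D guide (0.123%). At an unadjusted p under 0.05 edgeR gave 1 member for the 42D guide with DMSO, 0 for it with R1881, and 1 for each of the 3 response differences with 0 calls, and DESeq2 called 0 in these 5 comparisons and in sgT33-5 against NT3 with DMSO.

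Between the NT3 cells of 42D and LNCaP, 7 of 9 members differed with DMSO (4 higher, 3 lower in 42D, 68.1% of all genes) and 7 with R1881 (4 higher, 3 lower, 68.9%), shares near the background. CAMKK2 was lower in 42D by -0.91 with DMSO (SE 0.066, adjusted p = 6.66e-15) and by -0.86 with R1881 (SE 0.062, adjusted p = 7.64e-15). PRKAA1 was lower by -0.68 (SE 0.050, adjusted p = 1.23e-14) and -0.92 (SE 0.051, adjusted p = 2.6e-18). PRKAA2 was higher by 0.53 (SE 0.127, adjusted p = 0.000487) and 0.51 (SE 0.119, adjusted p = 0.00036). In the difference of the responses, 2 of 9 were called (PRKAB2 and PRKAA1, 3.85% of all genes), and in the difference of the guide effect with R1881, 1 (CAMKK2, 1.32%). The labels give no batch, and the cell line and any batch of culture or sequencing cannot be told apart here.

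The 5 genes whose mean log2 level followed that of CAMKK2 most closely over the 8 LNCaP groups were ABCC4 (Pearson r = 0.997), PSMD8 (0.996), TMPRSS2 (0.995), SLC45A3 (0.995) and LRIG1 (0.995). Over all 12 groups the same measure gave 0.675 for ABCC4, 0.993 for PSMD8, 0.797 for TMPRSS2, 0.99 for SLC45A3 and 0.95 for LRIG1. TMPRSS2, a serine protease gene, and SLC45A3, which encodes prostein, are well-known androgen-induced genes of the prostate. The points are group means that share their libraries, and 11043 genes were ranked, so the values are a description.

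Other genes of the pathway were taken from 5 lists. The list of calcium and LKB1 input (calmodulins, calmodulin kinases and the LKB1 partners) had 15 of 18 genes tested. In LNCaP NT3 with R1881, 0 rose and 4 fell (median log2 -0.144, against -0.0107 over all genes, of which 13.2% were called); the count was 2, 1 and 2 without NT3 DMSO replicate 1, DMSO replicate 2 and R1881 replicate 3. One of them, CAMK2N1, an inhibitor of CaM kinase II, fell by 0.45 (SE 0.097, adjusted p = 0.00209, or 0.0676 in a fit of only the libraries compared). In 42D NT3, 0 rose and 3 fell (median -0.0504, all genes -0.00318, 25.3% called), or 5 in all with replicate number as a block, and CAMK2N1 fell by 0.44 (SE 0.069).

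Against NT3 with R1881, 4 genes of this list were higher and 2 lower in C2 (median -0.0342, all genes 0.000235, 23% called). CAMK2N1 was higher by 1.79 in C2 (SE 0.099), 1.85 in F2 and 1.78 in sgT33-5 (SE 0.099). With DMSO it averaged 281.2 CPM in LNCaP NT3 and 785.9 to 826.2 CPM in the guide lines. The rise was not limited to guide lines: with DMSO, CAMK2N1 was also higher in 42D NT3 than in LNCaP NT3, by 1.63 (SE 0.096, adjusted p = 3.22e-15). Also in C2 with R1881, CAMK2B, a CaM kinase II subunit, was higher by 0.79 (SE 0.109), and CAB39L, an LKB1 scaffold, was lower by 0.34 (log2 -0.34, SE 0.054).

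Of the 13 AMPK-related kinases, which LKB1 also activates except for MELK, 0 rose and 3 fell in LNCaP NT3 with R1881 (median -0.0821), and 1 rose and 5 fell in 42D NT3 (median -0.0538), where 13.2% and 25.3% of all genes were called and their medians were -0.0107 and -0.00318. NUAK2 fell by 0.69 in LNCaP NT3 (SE 0.095) and by 1.21 in 42D NT3 (SE 0.11), and the 42D response was lower by -0.55 (SE 0.148, adjusted p = 0.0224). SNRK fell by 0.29 in LNCaP NT3 (SE 0.061). NUAK2 was higher by 0.49 in C2 than in NT3 with R1881 (SE 0.095), where 2 of the list were higher and 1 lower (median -0.00803, all genes 0.000235, 23% called), and NUAK1 was lower by 0.48 (log2 -0.48, SE 0.085).

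Among the 9 genes of folliculin, its partners and the AMPK phosphatases, 3 rose and 0 fell in LNCaP NT3 with R1881 (median 0.132, all genes -0.0107, 13.2% called). PPM1A, a phosphatase that acts on AMPK, rose by 0.63 (SE 0.074), and PPP2CB, a catalytic subunit of phosphatase 2A, rose by 0.36 (SE 0.059). In 42D NT3, 4 rose and 0 fell (median 0.0486, all genes -0.00318, 25.3% called), or 2 without R1881 replicate 2. PPP2CB went from 63.77 ± 1.31 to 192.3 ± 6.15 CPM there, a rise of 1.61 (SE 0.043), against 88.1 ± 1.96 to 114.1 ± 3.42 CPM in LNCaP NT3. The difference of the PPP2CB responses was 1.22 (SE 0.076, adjusted p = 3.2e-14). In C2 with R1881, 0 of this list were higher and 3 lower than in NT3 (median -0.158, all genes 0.000235, 23% called), or 1 without the filter on low counts or without C2 R1881 replicate 1 or 2, and PPM1A was lower by 0.34 (log2 -0.34, SE 0.073).

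Of the AMPK targets in lipid and glucose metabolism, 16 of 17 were tested. In LNCaP NT3 with R1881, 5 rose and 2 fell (median 0.0131, all genes -0.0107, 13.2% called), and in 42D NT3, 6 rose and 3 fell (median 0.0971, all genes -0.00318, 25.3% called). TBC1D1, a Rab GTPase-activating protein of glucose uptake, rose by 0.91 in LNCaP NT3 (SE 0.073) and 0.94 in 42D NT3 (SE 0.053). TXNIP, an inhibitor of glucose uptake, fell by 0.47 in LNCaP NT3 (SE 0.099) and by 1.63 in 42D NT3 (SE 0.167), and the responses differed by -1.19 (SE 0.182, adjusted p = 9.75e-05). TBC1D4, a paralogue of TBC1D1, rose by 1.06 in 42D NT3 (SE 0.09), more than in LNCaP NT3 by 0.85 (SE 0.157, adjusted p = 0.000511). In C2 with R1881, 1 of the list was higher and 4 lower than in NT3 (median -0.086, all genes 0.000235, 23% called), or 3 in all without NT3 R1881 replicate 3; TBC1D4 was lower by -1.0 (SE 0.11) and TBC1D1 by -0.46 (SE 0.072).

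All 19 AMPK targets in growth, autophagy and transcription were tested. In LNCaP NT3 with R1881, 4 rose and 0 fell (median 0.0151, all genes -0.0107, 13.2% called), and in 42D NT3, 6 rose and 3 fell (median 0.0872, all genes -0.00318, 25.3% called). MTOR, the growth kinase, rose by 0.65 in LNCaP NT3 (SE 0.12) and 0.56 in 42D NT3. TFEB, a transcription factor of lysosome genes, went from 6.994 ± 0.408 to 14.13 ± 0.497 CPM in LNCaP NT3 and from 26.33 ± 0.647 to 20.57 ± 0.457 CPM in 42D NT3, without overlap in either. TFEB rose in the first and fell in the second, and the responses differed by -1.37 (SE 0.158, adjusted p = 1.2e-07). FOXO3, a stress-response transcription factor, rose by 0.78 in 42D NT3 (SE 0.059), and PPARGC1A, a coactivator of mitochondrial genes, fell by 1.06 (SE 0.17). In C2 with R1881, 1 of the list was higher and 4 lower than in NT3 (median -0.0834, all genes 0.000235, 23% called), or 3 in all without NT3 R1881 replicate 1; FOXO3 was lower by -0.56 (SE 0.095) and MTOR by -0.55 (SE 0.119).

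In sgT33-5 against NT3 with R1881, where 3.04% of all genes were called, the lists had 2 calls in all: CAMK2N1 was higher and NUAK1 lower (log2 -0.37, SE 0.086, adjusted p = 0.0165). The NUAK1 call was lost without NT3 R1881 replicate 1 or 3 or sgT33-5 R1881 replicate 1 or 2 (adjusted p from 0.0617 to 0.129), and without both libraries of low mitochondrial share (0.106). The list medians lay between -0.102 and -0.00113, against -0.00814 over all genes. In F2, where 13.4% of all genes were called, the calcium and LKB1 list had 3 higher and 2 lower (3 calls in all without NT3 R1881 replicate 1 or F2 R1881 replicate 2 or 3), the related kinases 0 and 1, the phosphatases 1 and 0, the metabolic targets 2 and 1, and the growth targets 0 and 1. The related kinases and the growth targets each had 2 calls without F2 R1881 replicate 3, and the phosphatases 0 without NT3 R1881 replicate 2 or 3. NUAK1 was lower in F2 by -0.72 (SE 0.087).

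Between 42D NT3 and LNCaP NT3 with DMSO, where 68.1% of all genes were called, 7 of the calcium and LKB1 list were higher in 42D and 4 lower (median 0.316, all genes 0.00271). Of the related kinases 8 were higher and 0 lower (median 0.257), and of the phosphatases 1 was higher and 3 lower (median -0.148). The metabolic targets had 7 higher and 7 lower (median 0.00739), and the growth targets 7 and 3 (median 0.0624). BRSK1, an AMPK-related kinase of neurons, was higher in 42D by 3.10 (SE 0.174), TFEB by 1.91 (SE 0.115), and TBC1D4 was lower by -1.86 (SE 0.115).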

How the data were processed

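The authors' deposited table holds whole-number counts per gene for the 36 libraries; cutadapt, HISAT2 2.1.0 and GRCh38 (hg38) are named in the submitters' processing notes, while the counting tool, annotation and strand setting are not given in the sources used here. Of the 61806 table entries, 61805 name a gene, and the other entry holds 0 counts. Per the labels' protocols, libraries were stranded and read in pairs.

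From the counts, edgeR 4.0.16 (R 4.3.3) was fitted with TMM scaling, filterByExpr and robust quasi-likelihood F tests, 2-sided, in 3 fits: 24 LNCaP libraries (15519 genes), 12 libraries of 42D (15403) and all 36 (16564), for 24 comparisons. All 9 members passed the filter on low counts in each fit. CPM come from the fit of all 36. Members had from 3 (PRKAG1) to 8311 (CAMKK2) counts per library. Replicates of a group differed by more than counting noise (chi-square per gene 2.59 to 24.2 over 36 pairs), so none was counted as a duplicate. Counts were also simulated for R1881 in LNCaP NT3 (15288 genes). The changed genes were drawn from those with a mean over 5 CPM, and each gene otherwise had the same mean in all groups. There, 82% of 50 genes changed 1.5-fold and 100% of those changed 2-fold or more were called, with 5 false calls. These rates do not cover genes of lower level such as PRKAG1. Likeness to CAMKK2 used log2(CPM + 1) of group means, for genes with a mean of 5 CPM or more. Python 3.11.15 and pandas 2.3.3 read the sequences and drew the figures.

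Named were the 9 members and PRKAG3; TRIM33, KLK3 and FKBP5 as checks; up to 2 called genes per direction with the largest change from each pathway list in set comparisons; and the 5 genes most like CAMKK2. Some genes that this rule names are not reported here. The differences in response of list genes were added after their values were seen. The members and lists were chosen with earlier results of these data known. Alternatives were DESeq2 1.42.0, RLE scaling, no filter, a fit of only the libraries compared, replicate number as a block, and leaving out each library; leaving out the 2 libraries of low mitochondrial share was added after seeing the data. Replicate numbers were taken to pair libraries where every same-numbered pair deviated together (correlation over 0.1), which held in 7 of the 24 comparisons.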

Additional observations from a re-analysis of the deposited data

Results flagged for a closer look

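The differences between groups below met a test of the difference itself. The response of CAMKK2 to R1881 was smaller in LNCaP C2 than in LNCaP NT3 by -0.59 (log2, SE 0.095, adjusted p = 0.00109). The guide difference of CAMKK2 with R1881 was higher in 42D than in LNCaP sgT33-5 by 0.44 (SE 0.087, adjusted p = 0.00273), and leaving out 1 library gave 0.369 to 0.519 with adjusted p from 0.000232 to 0.0251. The response of PRKAB2 was larger in 42D NT3 than in LNCaP NT3 by 0.64 (SE 0.089, adjusted p = 4.5e-06). The response of PRKAA1 was lower in 42D NT3 than in LNCaP NT3 by -0.24 (SE 0.071, adjusted p = 0.0431), a call that ended in 11 of the 12 fits that left out 1 library.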

How the results depend on the processing

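Over the 9 members and 24 comparisons, leaving out 1 library gave 1620 values: 1562 kept their direction and call, 49 lost the call, 9 gained one and 0 changed direction. The other settings gave 1120 values, of which 1078 were the same, 13 lost and 29 gained a call and 0 changed direction. Of the 305 values for CAMKK2, 304 were the same. The number of members called with replicate number as a block was 5 for R1881 in F2, 1 for sgT33-5 and 5 for C2 against NT3 with DMSO in LNCaP, 2 for sgT33-5 against NT3 with R1881 in LNCaP, 1 for 42D sgT33-5 against NT3 with DMSO and 2 for the guide difference between cell lines. In the comparisons whose numbers paired the libraries, the block changed no member call beyond those given beside their results. In a fit of only the libraries compared, 5 members were called for C2 against NT3 with DMSO, 0 for sgT33-5 against NT3 with R1881 (CAMKK2 at -0.326), 1 for F2 against NT3 with R1881 and 1 for the response difference between cell lines. Without the filter on low counts 1 was called for C2 against F2 with DMSO and 1 for the response difference, and RLE scaling also gave 1 for the latter. Leaving out each library gave ranges of 1 to 2 for R1881 in C2, 1 to 4 for R1881 in F2, 1 to 3 for C2 and 2 to 4 with R1881 against NT3, 1 to 2 for F2 against NT3 with R1881, 1 to 3 for C2 against F2 with DMSO, 0 to 1 for 42D sgT33-5 against NT3 with DMSO, and 1 to 2 for the response difference. The causes were not tested. Over all 12 groups, 1 of the 5 genes most like CAMKK2 stayed among the top 5. Scaling moved the median of all genes by at most 0.018. The tests of PRKAG1 are limited by its 3 to 16 counts per library.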
